A study of Mus musculus with 16 samples.

Results

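The heat shock genes described here are Hspa1a, Hspa1b, Hspb1, Hsph1, Dnajb1, Hsp90aa1 and Hspa8, 7 of the 24496 gene symbols in the count tables, of which 18293 had a UMI (unique molecular identifier, 1 counted RNA molecule) in the cells kept. They were chosen by their level in CPM (UMIs per 1000000 UMIs of the same cells), the share of cells with a UMI and the share of UMIs held by the top cell in each gated cell type, so those levels and shares are given as a description, with no test. Each symbol had 1 entry in the tables, and each had UMIs in the cells kept: Hspa1a 14076 in 2796 cells, Hspa1b 3914 in 1590, Hspb1 793 in 126, Hsph1 12301 in 8626, Dnajb1 31042 in 18121, Hsp90aa1 84496 in 26086 and Hspa8 718818 in 37094.

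Heat shock proteins are chaperones that bind unfolded proteins and help them fold again or be degraded. In heat, oxidative stress or other damage to proteins, the transcription factor HSF1 binds repeated GAA units, called heat shock elements, in the promoters of their genes and their RNA levels rise. Immune cells use constitutive members for folding and for maturing kinases and receptors, and the inducible members also respond when tissue is warmed, cut or digested to release cells.

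The study measured single-cell RNA in MC38 tumors, a mouse colon carcinoma line implanted in mice, and in spleens. Mice were Aire+/+ or Aire-/- on a C57BL/6 background, and received Isotype Control or anti-PD1 antibody. Aire is the autoimmune regulator that lets the thymus show tissue antigens to developing T cells, and PD-1 is an inhibitory receptor of T cells. Tissue was taken on day 19 and sorted for CD45+ cells, which are all leukocytes, or for CD8+ cells, which gave 16 libraries with 1 for each genotype, treatment, tissue and sort.

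Each library came from tissue pooled over mice by the paper's methods, with 1 library a group, and no test was made. Intervals are 95% and cover counting error alone. UMIs of these genes gathered in single cells, so the spread between mice or between repeat libraries is not in them. Values for the 4 conditions are given with Aire+/+ before Aire-/- and, within a genotype, isotype before anti-PD1. Rose and fell are used for a ratio of at least 2-fold, a log2 ratio of 1 or more in size, among genes with at least 50 UMIs over the pair of libraries.

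Between 1856 and 2944 cells were kept in a library, 37453 in all, with 10927395 to 38930018 UMIs. Median UMIs per cell ran from 4413.5 to 12252, and were lower in each spleen library than in each tumor library. Of the cells kept, 34067 (91.0%) passed 1 marker gate, 165 (0.441%) passed more than 1 and were left out of the gates, and 3221 (8.60%) passed none. Markers were then read in each gate. Tumor macrophages had 3601 CPM of the complement gene C1qa and 0.121 CPM of the B cell gene Cd79a. CD8 T cells of the CD8+ tumor sort had 1455 CPM of Cd8a, 4.59 CPM of C1qa and 0.0301 CPM of Cd79a. Splenic B cells had 3822 CPM of Cd79a. The B gate of tumors was small and mixed, with 997 CPM of Cd79a beside 4436 CPM of Lyz2 in 24 cells of the CD45+ sort, and 0 beside 785 CPM of Cd8a in 12 cells of the CD8+ sort, and it is not used.

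Some libraries stood apart. The Aire-/- isotype CD8+ tumor library held 2756 UMIs (123 CPM) of the 3 fibroblast markers Col1a1, Col1a2 and Dcn, its CD45+ tumor library held 22.6 CPM, and the other libraries at most 3.58 CPM. The Aire+/+ isotype CD8+ spleen library held 4975 UMIs (247 CPM) of 4 hemoglobin genes. The part of either in the results was not tested. Aire itself had 0 to 6 UMIs in a library, too few to check the genotype. The 120 pairs of libraries shared 2 to 18 cell barcodes, with a median of 7. Mitochondrial UMIs were a median of 1.74% to 2.19% per cell in tumor libraries and 3.35% to 4.87% in spleen libraries. For flow cytometry the paper digested tumors with enzymes and dispersed spleens mechanically. Its single-cell section does not name these steps, and where preparation differed with tissue the 2 cannot be told apart.

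Hspa1a and Hspa1b encode the stress-inducible Hsp70, the chaperone that rises most from rest in a heat shock response. They are neighbours on the minus strand of chromosome 17 in GRCm38, Hspa1a at 34969190 to 34972156 and Hspa1b at 34956436 to 34959238. Their transcripts are closely alike, and were not compared base by base here. Reads may be split between them or lost as matching both, so a level of 1 of them alone can depend on the alignment.

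In all cells of the CD45+ tumor sort Hspa1a stood at 85.4 CPM (82.5 to 88.4), 116 CPM (112 to 120), 112 CPM (108 to 116) and 31.6 CPM (29.4 to 34.0). The Aire-/- anti-PD1 tumor was the lowest of the 4, and the middle 2 intervals overlap. Macrophages were 32.8%, 28.6%, 23.7% and 7.57% of these cells and monocytes 29.9%, 27.4%, 29.7% and 21.1%, so levels over all cells also hold the mix of cell types. In CD45+ spleens it stood at 18.6, 6.59, 16.1 and 10.9 CPM, in CD8+ tumor sorts at 15.6 (14.3 to 16.9), 33.5 (31.3 to 35.7), 34.6 (32.2 to 37.1) and 26.6 CPM (24.5 to 28.7), and in CD8+ spleen sorts at 10.4, 3.70, 5.07 and 5.41 CPM. Each tumor library was above the spleen library of its own condition and sort, as the plot of levels in the 16 libraries shows.

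**Figure D1:**
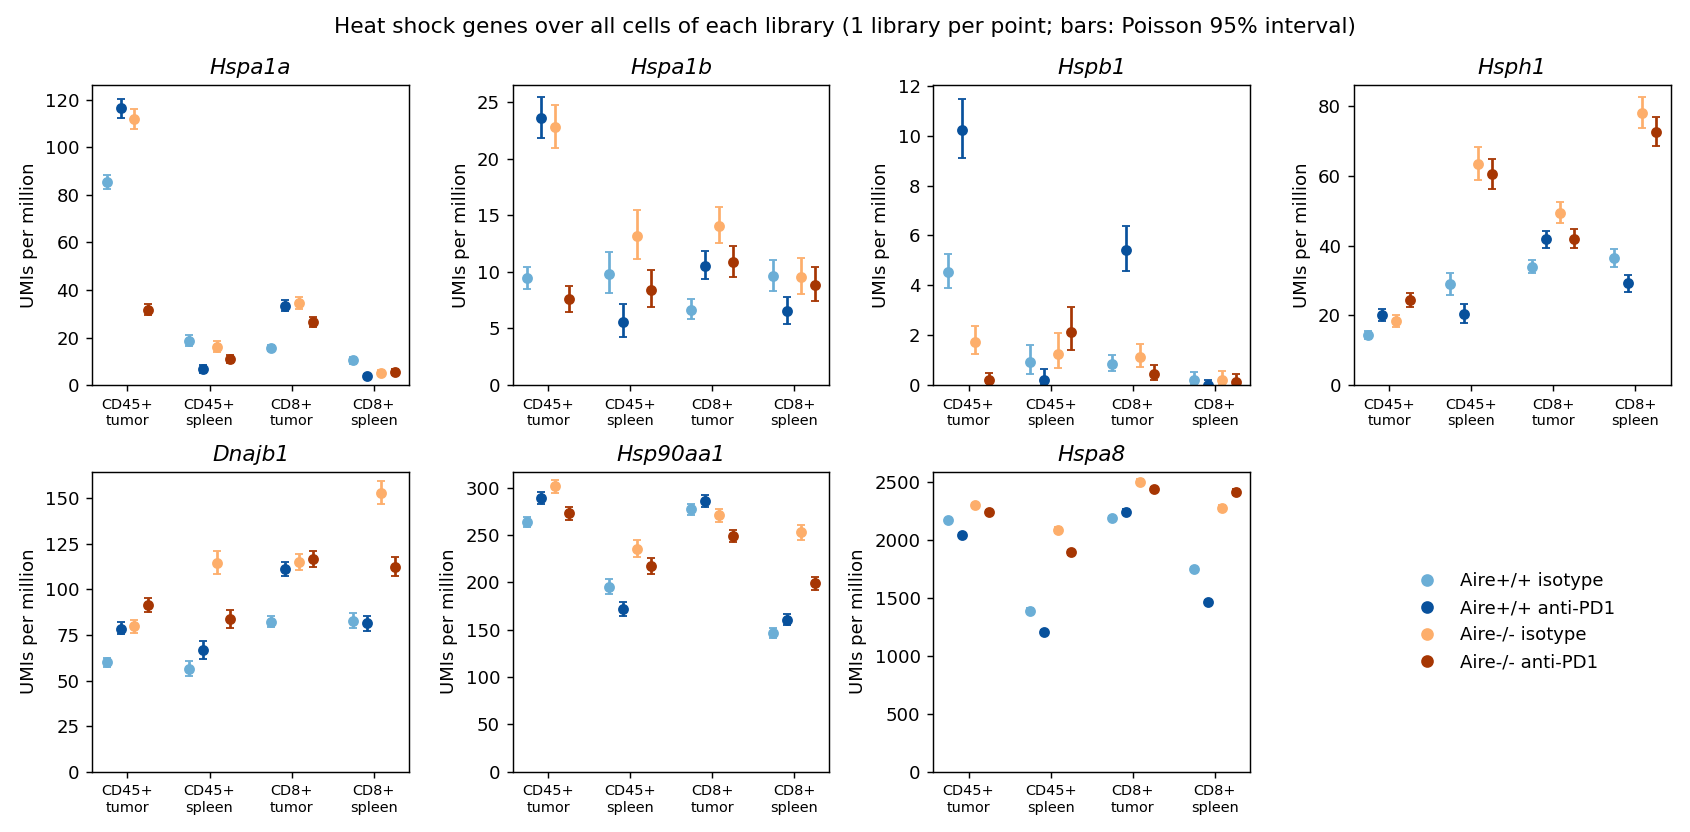
Level of each of the 7 genes in all cells of each library (vertical axis, CPM), by sort and tissue along the horizontal axis and by condition in color. Bars are 95% Poisson intervals for counting error, with 1 library a point. Hspa1a ran from 31.6 to 116 CPM in CD45+ tumor libraries and from 3.70 to 10.4 CPM in CD8+ spleen libraries.

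By the median over libraries, myeloid gates held the highest Hspa1a levels among gates with at least 50 cells in each of the 4 conditions. Tumor macrophages had 99.4 CPM (94.3 to 105), 156 CPM (148 to 164), 99.0 CPM (91.7 to 107) and 53.3 CPM (43.4 to 64.8) in 961, 632, 439 and 157 cells. Tumor monocytes had 96.1, 105, 150 and 65.6 CPM. Both myeloid gates of the tumor were lowest in the Aire-/- anti-PD1 library. Splenic monocytes had 79.9, 24.3, 97.6 and 114 CPM in 179, 122, 111 and 69 cells, so in that gate the Aire+/+ anti-PD1 library was the low one.

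A Hspa1a UMI was found in 35.9% (32.9 to 39.0, Clopper-Pearson), 34.7% (30.9 to 38.5), 33.5% (29.1 to 38.1) and 22.9% (16.6 to 30.3) of tumor macrophages, at median depths of 14174, 14482, 13904 and 11521 UMIs per cell. With each cell thinned to 2000 UMIs the shares were 11.8%, 13.6%, 12.1% and 7.64%. The Aire-/- anti-PD1 library stayed the lowest of the 4, though its thinned interval overlaps those of the other 3. In tumor monocytes the shares were 25.3%, 24.6%, 29.9% and 22.9%, and 10.5%, 8.93%, 12.7% and 7.55% after thinning.

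Tumor CD8 T cells of the CD8+ sort had less Hspa1a: 14.2 CPM (12.9 to 15.5), 35.3 CPM (33.1 to 37.7), 33.7 CPM (31.3 to 36.3) and 25.9 CPM (23.8 to 28.1) in 2442, 2090, 1748 and 2128 cells. The Aire+/+ isotype library was the low one, and only the intervals of the Aire+/+ anti-PD1 and Aire-/- isotype libraries overlap among these 4. The UMIs lay in few cells: 3.11% (2.46 to 3.88), 3.16%, 4.92% (3.95 to 6.04) and 3.24% of the cells had at least 1, and 1.56%, 2.06%, 2.69% and 1.64% after thinning to 2000 UMIs from medians of 10994, 10154, 10048 and 8829.5. In the CD45+ sort, the CD8 T gate had 7.36, 47.2, 28.9 and 14.7 CPM in 122, 197, 199 and 682 cells, again lowest in the Aire+/+ isotype library.

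Levels were low in splenic CD8 T cells and B cells. Splenic CD8 T cells of the CD8+ sort had 5.80, 2.66, 4.80 and 4.81 CPM, with a UMI in 2.56%, 1.38%, 2.67% and 2.01% of cells and in 1.15%, 0.550%, 0.957% and 0.741% after thinning. Splenic B cells had 4.69, 1.16, 3.64 and 1.18 CPM in 1393, 1439, 1338 and 1703 cells. Dendritic gates had at least 50 cells in 1 library each. In the CD8+ spleen sort of Aire+/+ isotype mice, 62 type 1 conventional dendritic cells had 83 Hspa1a UMIs (106 CPM), 27.7% of them in 1 cell, while plasmacytoid dendritic cells of the Aire+/+ isotype CD8+ tumor sort had 3.80 CPM and mature dendritic cells of the Aire-/- anti-PD1 CD45+ tumor sort 9.73 CPM. Tumor NK cells had 33.9, 37.4, 6.71 and 29.4 CPM, of which the top cell held 76.4%, 88.4%, 46.2% and 95.1%, so in 3 of the 4 libraries the level rests mainly on 1 cell. Tumor regulatory T cells had 34 UMIs in 1 cell in the Aire+/+ anti-PD1 library and 0 in the 68 cells of the Aire-/- anti-PD1 library, with an upper Poisson bound of 6.55 CPM.

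Among gates with 4 libraries, the medians of Hspa1a ordered as tumor monocytes at 100.5 CPM, tumor macrophages at 99.2, splenic monocytes at 88.8, tumor NK cells at 31.7, tumor CD8 T cells at 29.8 in the CD8+ sort and 21.8 in the CD45+ sort, splenic CD4 T cells without Foxp3 at 10.8, splenic CD8 T cells at 6.33 in the CD45+ sort and 4.81 in the CD8+ sort, and splenic B cells at 2.41. Neighbours in that order overlap over their 4 libraries. Over the ends of the order there is no overlap, with 53.3 to 156 CPM in macrophages, 14.2 to 35.3 in CD8 T cells of the CD8+ tumor sort and 1.16 to 4.69 in B cells.

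Free RNA in droplets can put a UMI of an abundant gene into a cell that does not express it. Relative to macrophages, the NK gate held 0.205%, 0.209%, 0.132% and 0.0498% of the macrophage level of Lyz2, a lysozyme gene of myeloid cells, and 34.1%, 23.9%, 6.78% and 55.2% of the macrophage level of Hspa1a, the latter resting on 1 cell in 3 of the 4 libraries, as above. In the CD8 T gate the same measure was 6.72%, 10.4%, 1.89% and 3.30% for Lyz2 and 7.40%, 30.2%, 29.2% and 27.5% for Hspa1a, and for the myeloid gene Apoe it was 0.357%, 0.307%, 1.82% and 0.751%. Hspa1a and Lyz2 were close in the Aire+/+ isotype library, where Apoe was far below both. The part of free RNA in the T cell levels was not tested.

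Hspa1a in T cells was a matter of few cells with many molecules. The top cell held 64, 121, 69 and 74 UMIs in CD8 T cells of the CD8+ tumor sort, or 14.3%, 13.6%, 9.86% and 12.8% of the total, where the median gene with at least 50 UMIs had 0.804%, 0.916%, 1.12% and 0.954% in its top cell. The top 1% of cells held 80.8%, 87.1%, 62.6% and 86.8% of Hspa1a UMIs. In macrophages the top cell held 5.08%, 12.5%, 4.69% and 18.0% of Hspa1a UMIs, beside 1.40%, 1.85%, 2.38% and 4.28% for the median gene.

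Cells with at least 5 Hspa1a UMIs, a limit chosen after the values were seen, made this visible. They were 21, 31, 39 and 26 of the tumor CD8 T cells of the CD8+ sort (0.860%, 1.48%, 2.23% and 1.22%) and held 77.2%, 94.8%, 87.6% and 90.3% of the UMIs. Such cells were 8.64%, 9.34%, 10.9% and 5.10% of macrophages and 6.28%, 4.30%, 8.53% and 2.75% of tumor monocytes. Splenic CD8 T cells held almost no cell of this kind, with 0.0371%, 0%, 0% and 0.0819%, and splenic B cells 0.0718%, 0%, 0.149% and 0%. Spleen libraries had lower median depth than tumor libraries, and no count at matched depth is given.

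Within tumor CD8 T cells of the CD8+ sort, the cells with at least 5 Hspa1a UMIs were set against cells with 0. Of 3118 genes tested, 10 were at least 2-fold higher in each of the 4 libraries (0.321%), and 4 of those were heat shock genes of the set of 7. The number of genes tested was 4402, 3118 and 1987 at limits of 2, 5 and 10 UMIs, so it fell as the Hspa1a-rich cells became fewer. Such a choice can favor genes high in those cells and leave out genes low in them. Shares of this kind, in myeloid cells too, are thus a description and no background. Hspa1b was higher by log2 8.44, 8.18, 6.15 and 9.24. Hsph1 was higher by 3.06, 3.97, 2.17 and 3.42, Dnajb1 by 2.97, 3.49, 1.99 and 3.53, and Hsp90aa1 by 2.20, 2.90, 1.70 and 2.62. Hsph1, Dnajb1 and Hsp90aa1 thus stood high in the same T cells of this sort as Hspa1a. Hspa1b may share reads with Hspa1a, so it is not taken as a separate measure in these cells. Hspa8 had 0.69, 1.28, 0.75 and 1.10, past 2-fold in 2 of the 4 libraries. In the CD45+ sort the 3 libraries other than Aire+/+ isotype had at least 5 such T cells, 6, 6 and 7. There Hspa1b had 7.11, 7.92 and 8.30 and Hsp90aa1 2.64, 1.37 and 1.19. Hsph1 had 1.63, 2.31 and 0.88 (-0.26 to 1.83) and Dnajb1 2.46, 2.06 and 0.61 (-0.15 to 1.28), so in the Aire-/- anti-PD1 library both were short of the fold with intervals that reach 0.

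The other 6 of the 10 genes, named because their number is small, were Jun (log2 1.76, 2.18, 2.38 and 2.73) and Fos (1.11, 1.79, 2.14 and 2.07), subunits of the AP-1 factor, Klf2 (1.80, 1.84, 1.53 and 2.10), a factor of resting T cells, the mitochondrial co-chaperonin Hspe1 (1.16, 2.12, 1.14 and 1.85), the histone gene Hist1h4i (1.68, 1.76, 1.45 and 1.66) and Ccdc117 (2.24, 1.75, 1.91 and 2.88). Lower in each of the 4 libraries were 4 genes: Gzma (-1.30, -1.06, -1.16 and -1.57), a granzyme of killer cells, the chemokine Ccl1 (-4.40, -1.70, -1.10 and -4.46), and the serpins Serpinb6b (-1.18, -1.55, -1.01 and -1.05) and Serpinb9 (-2.66, -1.64, -1.33 and -1.79). The endoplasmic reticulum chaperone Hspa5 did not share the pattern, with 0.03, 0.69, -0.44 and 0.21. Median depth in the cells with at least 5 and with 0 was 9676 against 10998, 10513 against 10120, 9640 against 10076 and 7312 against 8855 UMIs, and median mitochondrial share was 2.30% against 2.08%, 1.59% against 2.06%, 1.99% against 1.72% and 1.74% against 1.99%. With a limit of 2 Hspa1a UMIs, 10 genes of 4402 were higher in each library, and with 10 UMIs 8 of 1987, each time with 4 heat shock genes of the 7. In the CD45+ sort, at the limit of 5, Jun had 0.63 in the Aire+/+ anti-PD1 library and 2.52 in the Aire-/- isotype library. Fos had 2.28 and 0.835 there, so each gene was past the fold in 1 of these libraries and short of it in the other. The third library with enough such T cells, from Aire-/- mice given anti-PD1, is left out here. Whether the CD45+ sort as a whole repeats the rise of Jun and Fos is thus not judged from these values.

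**Figure D2:**
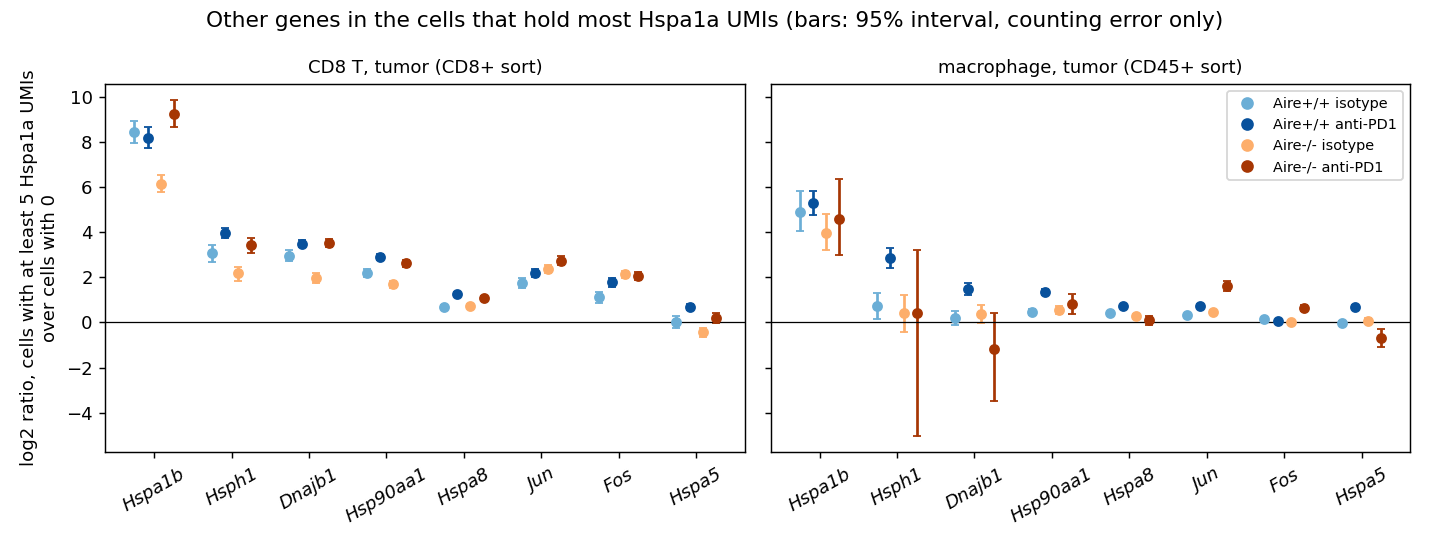
Log2 ratio (vertical axis) of each named gene's level in cells with at least 5 Hspa1a UMIs over cells with 0, for tumor CD8 T cells of the CD8+ sort and tumor macrophages of the CD45+ sort, with 1 point a library, colored by condition. In CD8 T cells Hspa1b, Hsph1, Dnajb1, Hsp90aa1, Jun and Fos lie above 1 in the 4 libraries, and in macrophages Hspa1b does.

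The same count was made in myeloid cells, where the Aire-/- anti-PD1 library had 8 such macrophages. In macrophages 1 gene of 5942 was at least 2-fold higher in each library (0.0168%), and that gene was Hspa1b, by log2 4.87, 5.27, 3.96 and 4.60. In monocytes it was 1 of 3720 (0.0269%), again Hspa1b, by 5.31, 7.52, 6.20 and 6.51. Reads of these 2 genes may be given to either, so in cells chosen by Hspa1a, T cells included, Hspa1b is not taken as a separate measure. The part of read assignment was not tested. Hsph1 in macrophages with at least 5 Hspa1a UMIs had 0.75, 2.84, 0.43 and 0.41, and Dnajb1 0.20, 1.48, 0.39 and -1.16, both past 2-fold upward in the Aire+/+ anti-PD1 library alone among these 4. The last value of each rests on 1 Hsph1 UMI (-5.02 to 3.19) and 3 Dnajb1 UMIs (-3.46 to 0.43) in the 8 cells, too few to place either gene. The difference between cell types was not tested.

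Hspa1b had less contrast between cell types. It stood at 9.43, 23.6, 22.8 and 7.56 CPM in CD45+ tumor libraries, 9.81, 5.58, 13.1 and 8.40 in CD45+ spleens, 6.65, 10.5, 14.1 and 10.8 in CD8+ tumors and 9.59, 6.52, 9.56 and 8.85 in CD8+ spleens. Tumor and spleen ranges overlap in each sort. By gate it was 7.97, 34.2, 15.8 and 11.7 CPM in macrophages, 31.2, 12.6, 53.8 and 36.0 in splenic monocytes, 6.65 to 13.7 in tumor CD8 T cells, 8.87, 6.21, 9.05 and 8.89 in splenic CD8 T cells and 3.58, 2.47, 4.36 and 2.35 in B cells. A Hspa1b UMI was found in 4.56%, 3.20%, 4.62% and 4.38% of splenic CD8 T cells and in 2.29%, 3.21%, 4.75% and 2.49% of tumor CD8 T cells, so no tissue was higher in each of the 4 conditions.

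Hspb1 encodes Hsp27, a small heat shock protein that holds unfolding proteins without using ATP, on the plus strand of chromosome 5 at 135887919 to 135889563. It was rare: 4.55, 10.2, 1.75 and 0.215 CPM in CD45+ tumor libraries in 19, 24, 9 and 3 cells, and its top cell held 38.4%, 32.3%, 34.9% and 60% of those UMIs. In tumor CD8 T cells it had 23, 145, 23 and 10 UMIs in 7, 18, 3 and 6 cells. Of the 109 UMIs in tumor monocytes of the Aire+/+ anti-PD1 library, 95 (87.2%) lay in 1 cell. Splenic monocytes had 0 in the 4 libraries, and of 24 UMIs in splenic B cells of Aire-/- anti-PD1 mice, 22 lay in 1 cell. The Aire+/+ anti-PD1 tumor thus had the highest Hspb1 level in both sorts, through few cells.

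Hsph1 encodes Hsp110, which swaps nucleotide on Hsp70 and lets it release its client, on the minus strand of chromosome 5 at 149614287 to 149636376. In all cells it stood at 14.4, 20.1, 18.3 and 24.4 CPM in CD45+ tumors, 28.9, 20.5, 63.4 and 60.5 in CD45+ spleens, 33.9, 41.8, 49.4 and 41.9 in CD8+ tumors and 36.4, 29.2, 78.1 and 72.6 in CD8+ spleens. In spleens of both sorts each Aire-/- library was above each Aire+/+ library. The gates showed the same split. Splenic CD8 T cells of the CD8+ sort had 37.9 CPM (35.2 to 40.9), 29.5 (27.0 to 32.1), 79.5 (75.0 to 84.2) and 74.6 (70.3 to 79.1), with a UMI in 21.2% (19.7 to 22.8), 16.1% (14.8 to 17.6), 37.8% (35.7 to 39.8) and 32.7% (30.8 to 34.6) of cells at median depths of 6356, 6304, 6265 and 5769. After thinning the shares were 6.93%, 5.28%, 15.4% and 13.4%.

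Splenic B cells had 29.1, 18.3, 60.2 and 59.6 CPM of Hsph1, with a UMI in 12.6%, 7.92%, 25.2% and 24.4% of cells and in 6.94%, 3.82%, 11.5% and 11.2% after thinning. CD8 T cells of the CD45+ spleen sort had 28.0, 26.2, 84.3 and 82.3 CPM, and splenic CD4 T cells without Foxp3 46.8, 33.0, 79.1 and 71.4 CPM in 67, 86, 140 and 128 cells. In each of these 4 splenic gates both Aire-/- libraries were above both Aire+/+ libraries. Hsph1 was lower in myeloid cells of the tumor, with 14.0, 25.9, 13.9 and 7.46 CPM in macrophages and 7.03, 6.21, 8.64 and 6.96 in monocytes, than in tumor CD8 T cells, with 35.0, 43.3, 51.1 and 42.8.

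Among gates with at least 3 libraries, ordered by its median over libraries, Hsph1 ran from splenic NK cells at 59.7 CPM (3 libraries), splenic CD4 T cells at 59.1, splenic CD8 T cells at 56.3 in the CD8+ sort and 55.2 in the CD45+ sort and B cells at 44.4, through tumor CD8 T cells at 43.0 in the CD8+ sort and 40.1 in the CD45+ sort and tumor regulatory T cells at 36.8 (3 libraries), to splenic monocytes at 21.9, tumor NK cells at 21.3, macrophages at 14.0 and tumor monocytes at 6.99. Gates with fewer libraries are not in this order, and splenic regulatory T cells had 97.5 CPM in their 1 library. Neighbours in this order overlap over their libraries. Tumor NK cells (at most 27.1) lie below tumor CD8 T cells of the CD8+ sort, and tumor monocytes (6.21 to 8.64) and those CD8 T cells (35.0 to 51.1) do not overlap.

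Dnajb1 encodes the Hsp40 that hands unfolded clients to Hsp70 and drives its ATP cycle, on the plus strand of chromosome 8 at 83608193 to 83612653. In all cells it stood at 60.1, 78.5, 79.6 and 91.1 CPM in CD45+ tumors, 56.5, 66.6, 114 and 83.5 in CD45+ spleens, 82.1, 111, 115 and 117 in CD8+ tumors and 82.9, 81.4, 153 and 112 in CD8+ spleens. In spleens the Aire-/- isotype library was the highest of each sort. Among gates, splenic CD8 T cells had 86.8, 82.9, 156 and 114 CPM with a UMI in 43.4%, 39.9%, 61.4% and 48.1% of cells, B cells had 53.1, 61.4, 103 and 73.7 CPM, tumor CD8 T cells 82.3, 113, 111 and 118 CPM and macrophages 55.9, 71.6, 63.4 and 61.3 CPM. Over gates with 4 libraries its medians lay between 48.4 CPM in splenic monocytes and 114 CPM in splenic CD4 T cells.

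Hsp90aa1 encodes the inducible Hsp90 alpha, which matures kinases and receptors, on the minus strand of chromosome 12 at 110690605 to 110702728. Its levels were 264, 289, 302 and 273 CPM in CD45+ tumors, 195, 172, 235 and 217 in CD45+ spleens, 277, 286, 271 and 249 in CD8+ tumors and 146, 161, 253 and 199 in CD8+ spleens. CD45+ tumors were above CD45+ spleens without overlap, and CD8+ tumor and spleen libraries overlap through the Aire-/- isotype spleen. Macrophages had 272, 324, 326 and 296 CPM, tumor CD8 T cells 276, 285, 264 and 248, splenic CD8 T cells 148, 159, 254 and 199 and B cells 214, 172, 243 and 228.

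Hspa8 encodes Hsc70, the constitutive Hsp70 that strips clathrin from vesicles and takes part in everyday folding, on the plus strand of chromosome 9 at 40800984 to 40810087. Its levels were 2171, 2048, 2306 and 2242 CPM in CD45+ tumors, 1392, 1207, 2085 and 1895 in CD45+ spleens, 2194, 2247, 2503 and 2442 in CD8+ tumors and 1753, 1464, 2278 and 2417 in CD8+ spleens. In spleens of both sorts the Aire-/- libraries were above the Aire+/+ libraries. By gate, levels were 1742, 1463, 2282 and 2430 CPM in splenic CD8 T cells, and B cells had 1172, 1002, 1894 and 1784, whereas tumor CD8 T cells had 2228, 2264, 2514 and 2451 and macrophages 2269, 2126, 2309 and 1910. A UMI was found in at least 94.1% of the B cells of each library.

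The comparison of Aire-/- with Aire+/+ asks what the loss of Aire changes under each treatment. In tumor CD8 T cells of the CD8+ sort under isotype, Hspa1a rose by log2 1.25 (1.08 to 1.43) and Hspa1b by 1.05 (0.78 to 1.31), 2 of 6 members tested, where 1.38% of all genes passed the fold in either direction. Without the 1% of cells richest in the gene the ratios were 2.21 and 2.11, and with cells thinned to 2000 UMIs Hspa1a was at 0.94, short of the fold. Hsph1 had 0.55, Dnajb1 0.43, Hsp90aa1 -0.07 (0.02 thinned) and Hspa8 0.17. The median of the members was 0.49 and that of all genes -0.03.

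Under anti-PD1 the same ratio in tumor CD8 T cells was small for most members. Hspb1 fell by 3.68 on the log2 scale (-4.77 to -2.76), from 145 to 10 UMIs, 1 of 7 members, beside 1.31% of all genes, and stood at -2.35 after thinning. The 145 UMIs lay in 18 cells, and without the top 1% of cells 0 against 0 UMIs remain, so the call rests on those few cells. Hspa1a had -0.45 (-0.60 to -0.30), Hspa1b -0.01 (-0.69 without the top 1% of cells), Hsph1 -0.02 (0.18 without the top 1%), Dnajb1 0.05, Hsp90aa1 -0.20 and Hspa8 0.11, with a median of -0.02 beside -0.01 for all genes. In the CD45+ sort the CD8 T gate gave a Hspa1a ratio of 1.97 (1.01 to 3.10) with isotype, the 1 member of 5 past the fold beside 1.67% of all genes. With anti-PD1 2 of 6 passed beside 2.31%, Hspa1a at -1.69 (-2.10 to -1.27) and Hspa1b at -1.30 (-1.97 to -0.62). Both sorts thus had Hspa1a higher in Aire-/- cells under isotype and lower under anti-PD1. These CD45+ values moved with the cells counted: without the top cell the isotype ratio was 3.40, over all cells of the library it was 0.39, and under anti-PD1 thinned cells gave -0.79 and leaving out the top 1% of cells gave -4.01. Hspa1b there stood at -2.79 in thinned cells.

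In tumor macrophages under isotype none of 6 members tested passed the fold, beside 2.25% of all genes, with a median of 0.10 beside -0.03. Hspa1b came closest at 0.99 (0.60 to 1.38) and stood at 1.57 without the top 1% of cells and 1.47 with thinned cells, past the fold, while Hspa1a had -0.01 (-0.14 to 0.13) and turned to 0.14 and 0.29 under the same changes. Under anti-PD1, 4 of 7 members fell, beside 5.79% of all genes past the fold in either direction: Hspa1a by log2 1.55 (-1.86 to -1.26), Hspa1b by 1.54 (-2.24 to -0.92), Hsph1 by 1.79 (-2.69 to -1.02), from 246 to 14 UMIs, and Hspb1 from 69 UMIs to 0, with a ratio of -2.18 at the 3-count floor and an upper interval end of -1.85. Of those 69 UMIs 44 (63.8%) lay in 1 cell, so the Hspb1 call rests mainly on that cell. The members' median was -1.54 and that of all genes -0.09. Dnajb1 had -0.22, Hsp90aa1 -0.13 and Hspa8 -0.15. Over all cells of the CD45+ tumor libraries, with no gate, Hsph1 turned to 0.28, Dnajb1 to 0.22 and Hspa8 to 0.13, and with a looser gate Hspa1b stood at -0.77. In tumor monocytes Hspa1a had 0.64 (0.51 to 0.77) with isotype and, with anti-PD1, -0.68 (-0.87 to -0.49), or -1.23 in thinned cells. Hspa1b there rose by 1.35 (1.02 to 1.69) with isotype and had -0.86 (-1.37 to -0.37) with anti-PD1, or -1.48 in thinned cells. Both genes thus had opposite signs in monocytes under the 2 treatments. Past the fold were 1 of 6 members with isotype, beside 2.41% of all genes, and with anti-PD1 1 of 7, beside 4.15%, namely Hspb1 with 1 UMI against 109. The plot of genotype ratios sets the treatments side by side.

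**Figure D3:**
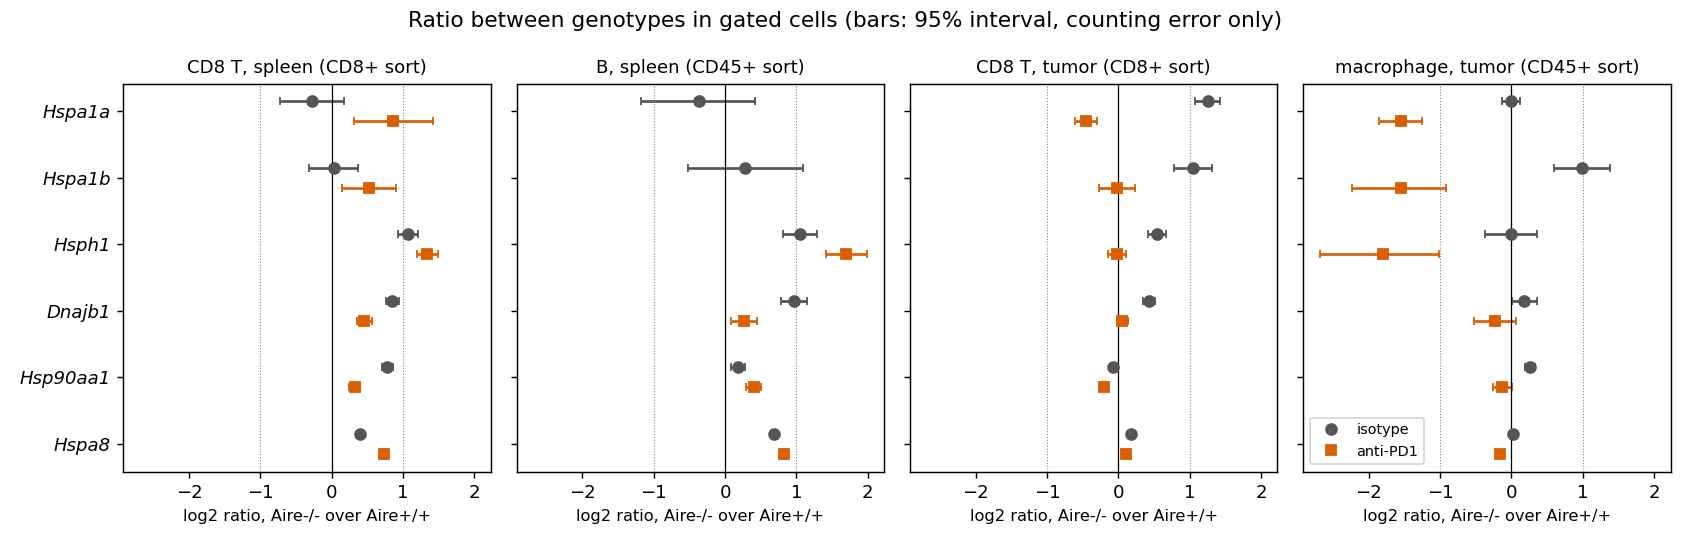
Log2 ratio of Aire-/- over Aire+/+ (horizontal axis) for each gene along the vertical axis in splenic CD8 T cells, splenic B cells, tumor CD8 T cells and tumor macrophages, under isotype and anti-PD1. Bars are 95% intervals for counting error, dotted lines mark 2-fold, and Hspb1 and pairs with under 50 UMIs are not drawn. Hsph1 lies past 2-fold in both splenic gates under both treatments, and Hspa1a in macrophages under anti-PD1 lies at -1.55.

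Hsph1 was past the fold with genotype in splenic CD8 T cells and B cells under both treatments. In splenic CD8 T cells it rose by log2 1.07 (0.93 to 1.20) under isotype, 1 of 6 members beside 2.05% of all genes, and by 1.34 (1.19 to 1.49) under anti-PD1, 1 of 6 beside 2.35%. In B cells it rose by 1.05 (0.81 to 1.30) under isotype, 1 of 6 beside 0.655%, and by 1.70 (lower bound 1.42) under anti-PD1, 1 of 4 beside 1.15%. The isotype intervals of both gates reach below 2-fold. The members' medians were 0.59 and 0.62 in CD8 T cells, beside 0.01 and 0.07 for all genes, and 0.49 and 0.62 in B cells, beside 0.01 and 0.03. Members short of the fold in CD8 T cells included Dnajb1 at 0.85 and 0.46, Hsp90aa1 at 0.78 and 0.32 and Hspa8 at 0.39 and 0.73. In B cells Dnajb1 stood at 0.96 and 0.26, Hsp90aa1 at 0.18 and 0.41 and Hspa8 at 0.69 and 0.83. Hspa1a in splenic CD8 T cells had -0.27 under isotype, or -1.06 in thinned cells, and 0.86 under anti-PD1, or 1.51 without the top 1% of cells. Smaller splenic gates had few UMIs. In splenic monocytes under isotype none of 6 members tested passed the fold, where 54 of 5329 genes did, and the members' median was 0.43. Under anti-PD1, 2 of 4 members tested passed it, beside 2.25% of all genes. Hspa1a was at 24.3 CPM in Aire+/+ and 114 CPM in Aire-/- mice, log2 2.23 (1.53 to 2.96), on 25 and 60 UMIs, and Hsp90aa1 at 81.6 and 169 CPM, log2 1.05 (0.60 to 1.49). Over all cells with no gate these were 0.72 and 0.34, short of the fold. In splenic CD4 T cells 1 of 4 members passed under isotype, beside 1.55% of all genes, Dnajb1 at 1.18 (0.59 to 1.82), with Hsph1 at 0.76. Under anti-PD1 it was 1 of 4, beside 2.18%, Hsph1 at 1.12 on 45 and 15 UMIs.

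The comparison of anti-PD1 with isotype asks what checkpoint blockade changes within a genotype, and it uses the same libraries as the genotype ratios. In tumor CD8 T cells of Aire+/+ mice Hspa1a rose by log2 1.32 (1.15 to 1.49) and Hspb1 by 2.98 (2.34 to 3.68), 2 of 7 members beside 0.889% of all genes, with a median of 0.46 beside 0.01. Without the top 1% of cells Hspa1a stood at 0.74, short of the fold, and Hspa1b moved from 0.74 to 1.27, past it, as it did with a stricter gate at 1.13. Hspb1 stood at 2.31 as a mean over cells, and the 1% of cells richest in it held its whole count, so without them 0 against 0 UMIs are left and there is no call. In Aire-/- mice none of 6 members passed, beside 0.785% of all genes, with a median of -0.17 beside 0.03. Hspa1a had -0.38 there, and -1.89 without the top 1% of cells, and Hspa1b -0.32 and -1.54. Treatment thus went with more Hspa1a in Aire+/+ CD8 T cells of this sort and not in Aire-/- ones, though the difference between genotypes was not tested. In the CD45+ sort the CD8 T gate of Aire+/+ mice had 7.36 CPM under isotype and 47.2 under anti-PD1, on 10 and 97 UMIs. That gate in Aire-/- mice had 28.9 and 14.7 CPM, on 68 and 105 UMIs.

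Macrophages of Aire+/+ tumors had Hspa1b up by log2 2.10 (1.79 to 2.42) and Hspb1 by 2.34 (1.62 to 3.12) under anti-PD1, 2 of 7 members beside 0.7% of all genes, with a median of 0.65 beside -0.02. Under anti-PD1 and isotype the top cell held 44 of 69 and 11 of 21 Hspb1 UMIs (63.8% and 52.4%), and without the top 1% of cells 3 against 0 remain, so that call rests on few cells. Over all cells with no gate these ratios were 1.32 and 1.17. Hspa1a had 0.65 and Hsph1 0.89. In Aire-/- tumors none of 6 passed, beside 2.77%, with a median of -0.35 beside -0.08. Hspa1a had -0.89, thinned cells gave -1.26 and all cells with no gate -1.83, Hsph1 had -0.90 and all cells with no gate gave 0.41, and Hspa1b had -0.43 and all cells gave -1.59. In tumor monocytes of Aire+/+ mice 1 of 7 members passed the fold under anti-PD1, beside 0.687% of all genes: Hspb1, from 1 to 109 UMIs, 95 of them in 1 cell, with 0 against 0 left without the top 1% of cells. Hspa1a had 0.13 there, or -0.02 without the top cell, and Hspa1b 0.64, or 1.03 in thinned cells. In Aire-/- mice 2 of 6 fell, beside 1.2%: Hspa1a by log2 1.19 (-1.38 to -1.01), from 150 to 65.6 CPM, or -1.85 in thinned cells, and Hspa1b by 1.57 (-2.06 to -1.11), or -2.40 without the top 1% of cells.

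Tumor NK cells ran otherwise, on few cells. By genotype under isotype Hspa1a was the 1 member of 5 past the fold, beside 2.75% of all genes, at -2.34 (-3.33 to -1.45), or -1.14 without the top cell and -0.85 in thinned cells. Under anti-PD1 it had -0.35, and 1 of 6 passed, beside 1.64%: Hspb1, with 3 UMIs against 80. Treatment in Aire+/+ mice also moved Hspb1, 1 of 6 beside 1.41%, from 3 to 80 UMIs, each count in 1 cell, so without the top cell 0 against 0 remain. With treatment in Aire-/- mice Hspa1a rose by 2.13 (1.29 to 3.09), 1 of 5 beside 1.18%, and turned to -1.36 without the top cell, which held 95.1% of the UMIs under anti-PD1. These 2 calls of Hspa1a in NK cells point opposite to the ratios of CD8 T cells, and few cells carry them.

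In splenic CD8 T cells Hspa1a fell by 1.13 on the log2 scale (-1.66 to -0.62) under anti-PD1 in Aire+/+ mice, from 106 to 47 UMIs, 1 of 6 members beside 0.66% of all genes, and without the top 1% of cells it stood at -2.02. In Aire-/- mice none of 6 passed, beside 0.706%, with Hspa1a at 0.00, or -0.62 without the top 1% of cells and 0.57 in thinned cells. In B cells none of 4 members in Aire+/+ mice and none of 5 in Aire-/- mice passed, beside 0.719% and 0.508% of all genes. Medians in CD8 T cells were -0.31 and -0.06, beside -0.02 and 0.04 for all genes, and in B cells -0.27 and -0.09, beside 0.01 and 0.03. Hsph1 had -0.36 and -0.09 in CD8 T cells and -0.67 and -0.01 in B cells. Hspa1a in B cells had under 50 UMIs over each pair, 8 against 34 in Aire+/+ and 10 against 25 in Aire-/- mice. Splenic monocytes of Aire+/+ mice were lower under anti-PD1 for Hspa1a by log2 -1.72 (-2.40 to -1.09) and for Hspa1b by -1.31 (-2.31 to -0.41), 2 of 5 members beside 0.783% of all genes. Those of Aire-/- mice had 0.22 and -0.58, with none of 5 past the fold beside 1.42%.

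Tumor and spleen CD8 T cells of the CD8+ sort differ in tissue and in depth, and may differ in preparation. Hspa1a rose in tumors by log2 1.29, 3.73, 2.81 and 2.43. It was the 1 member of 6 past the fold in Aire+/+ isotype, Aire-/- isotype and Aire-/- anti-PD1 mice, beside 27.8%, 26.7% and 26.2% of all genes, and in Aire+/+ anti-PD1 mice 2 of 7 passed beside 29.7%, the other being Hspb1 with 145 UMIs, in the 18 cells above, against 0, at 5.08 by the 3-count floor. The members' medians were 0.14, 0.84, 0.10 and 0.18, and those of all genes 0.07, 0.10, 0.03 and 0.04. Without the top 1% of cells Hspa1a stood at 0.24, 3.01, 2.35 and 1.09, and in Aire+/+ isotype mice it stood at 0.58 over all cells with no gate. Hspa1b had -0.42, 0.84, 0.60 and 0.31, and -2.15, -0.23, -0.06 and -1.61 without the top 1% of cells, while the mean over cells put Aire-/- isotype mice at 1.15.

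A total without mitochondrial and ribosomal protein genes shifts these tumor over spleen ratios by -0.32, -0.40, -0.32 and -0.32 and the others recomputed by 0.12 or less in size. Hsph1 stood at -0.12 (0.04 as a mean over cells), 0.55, -0.64 and -0.80, the last at -1.13 on that total, and Hspa1a in Aire+/+ isotype mice at 0.97. In Aire-/- isotype mice Hsp90aa1 (0.06 to -0.27) and Hspa8 (0.14 to -0.18) turned with that total, and in Aire-/- anti-PD1 mice so did Hspa1b (0.31 to -0.02), Dnajb1 (0.05 to -0.28), Hsp90aa1 (0.32 to -0.01) and Hspa8 (0.01 to -0.31). Tumor monocytes against splenic monocytes had Hspa1a at 0.27 (-0.03 without the top 1% of cells), 2.11, 0.62 and -0.79, so in the myeloid cells the sign differed between conditions.

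Other genes of protein stress were followed as lists. Of 27 other cytosolic chaperones and co-chaperones, 23 were tested in tumor CD8 T cells, and none passed the fold between genotypes or with treatment in Aire+/+ mice, with medians of 0.09, 0.00 and 0.03. With treatment in Aire-/- mice 1 rose, the polyubiquitin gene Ubb, from 90.1 to 270.25 CPM, log2 1.58, 1 of 23 beside 0.785% of all genes, and the median was 0.02. In splenic CD8 T cells none passed in the 4 comparisons, with medians of 0.22, 0.30, -0.17 and 0.05, and in B cells the Hsp40 gene Dnaja1 rose with Aire-/- from 142 to 353 CPM (1.32) under isotype and from 140 to 282 (1.01) under anti-PD1, 1 of 20 tested each time, beside 0.655% and 1.15% of all genes. Ubb rose with treatment in B cells of Aire-/- mice, from 178 to 387 CPM (1.12), 1 of 20 beside 0.508%, and the B cell medians of the list were 0.24, 0.48, -0.04 and -0.02. Macrophages had Hspa2 higher in Aire-/- cells by 1.31 and 1.14, and Bag3, a co-chaperone that links Hsp70 to autophagy, lower by log2 -1.05 under anti-PD1 (39.9 to 19.2 CPM). These were 1 of 21 tested beside 2.25% of all genes under isotype and 2 of 21 beside 5.79% under anti-PD1, with none of 22 and 20 past the fold by treatment, and medians of 0.00, -0.18, 0.04 and -0.10.

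The regulators Hsf1 and Hsf2 passed the fold in none of the 4 comparisons in tumor CD8 T cells, with medians of 0.01, -0.27, 0.01 and -0.27. Nor did the 7 mitochondrial chaperones (-0.03, -0.06, -0.09 and -0.09), the 15 endoplasmic reticulum genes (0.17, 0.06, 0.12 and 0.01) or the 17 immediate early genes (0.06, 0.25, 0.24 and 0.23). Among oxidative stress genes of macrophages Txnrd1 (1.14) and Srxn1 (1.35) were higher in Aire-/- cells under anti-PD1, 2 of 4 tested beside 5.79% of all genes, and Hmox1, the heme oxygenase, was lower with treatment in Aire-/- cells (-1.39), 1 of 4 beside 2.77%. The mitochondrial Hsp90 gene Trap1 was lower in Aire-/- macrophages under anti-PD1 (-1.26), 1 of 7 beside the same 5.79%, and the mitochondrial medians there were -0.21, -0.57, -0.11 and -0.35. In splenic CD8 T cells the endoplasmic reticulum list had medians of 0.00, 0.36, -0.15 and 0.20 and the immediate early list -0.11, 0.16, -0.11 and 0.11, with none past the fold.

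Tumor over spleen in CD8 T cells, where 27.8%, 29.7%, 26.7% and 26.2% of all genes passed the fold in either direction, the lists differed. Of 17 immediate early genes 15, 16, 15 and 16 rose, with medians of 2.63, 2.53, 2.42 and 2.53, among them Dusp1, a phosphatase of MAP kinases, at 5.01, 5.54, 4.91 and 5.47. Of 15 endoplasmic reticulum genes 5, 8, 6 and 4 rose, with medians of 0.79, 1.10, 0.91 and 0.80, and Hspa5 stood at 489, 633, 662 and 658 CPM in tumors against 176, 146, 175 and 207 in spleens. The cytosolic list had 6, 8, 5 and 5 genes higher of 23, 23, 23 and 22, with medians of 0.33, 0.44, 0.31 and 0.11, Bag3 among them at 1.38, 1.78, 1.48 and 1.35. Mitochondrial chaperones had medians of -0.20, -0.22, -0.31 and -0.36, with Dnaja3 lower by -1.08 and -1.32 in the Aire-/- pairs. The oxidative stress genes Hmox1 and Srxn1 rose in each of the 4 pairs, 2 of 4 tested, with list medians of 1.24, 1.74, 1.18 and 1.23, and the regulators had medians of -0.10, 0.09, 0.00 and -0.47. These medians stand beside 0.07, 0.10, 0.03 and 0.04 for all genes, and tissue and any difference in preparation cannot be told apart in them.

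Over the 16 libraries, the genes outside the set most like a member in log2 (CPM plus 1) were found by Pearson r among 2653 genes with a mean of at least 50 CPM. The points share tissue, sort and depth, so r is a description. Hspa1a was nearest to Tmed10 (0.963), Arpc1b (0.961), D8Ertd738e (0.957), Smdt1 (0.953) and the macrophage gene C1qb (0.952). Hsph1 was nearest to the co-chaperone Stip1 (0.951), Cacybp (0.895), Hspd1 (0.895), Fkbp4 (0.873) and Scamp3 (0.872), and Dnajb1 to Dnaja1 (0.963), Ccl5 (0.777), Stip1 (0.774), Ppp2r2a (0.770) and Chic2 (0.749). Stip1 thus stood among the 5 nearest genes of both Hsph1 and Dnajb1. The share of chaperones among the 2653 genes was not counted.

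Hspa1b was nearest to G3bp2 (0.660), Azi2 (0.655), Cyth4 (0.647), Gng5 (0.642) and Atg3 (0.639). For Hsp90aa1 they were Ywhah (0.882), Chmp5 (0.874), Cldnd1 (0.873), Pafah1b1 (0.867) and Ubxn4 (0.863), and for Hspa8 Fam96b (0.902), Pdcd6ip (0.876), Hn1 (0.831), Itgb1 (0.817) and Gbp4 (0.804). Among the members themselves Hspa1a went with Hspa1b at 0.730, Hspb1 at 0.752 and Hsp90aa1 at 0.720, and against Hsph1 at -0.583 and Dnajb1 at -0.260. Hsph1 went with Dnajb1 at 0.781, and Hsp90aa1 with Hspa8 at 0.727. Over 50 gate by library points, Hspa1a was nearest to Ifi204 (0.773), Cycs (0.762), Tgfbi (0.759), Lgals3 (0.751) and Ifitm2 (0.746), and Hsph1 to Fkbp4 (0.899), Scamp3 (0.833), Traf3ip3 (0.833), Nfatc3 (0.824) and Stip1 (0.816). Dnajb1 was nearest there to Stat4 (0.816), Il2rg (0.806), Dnaja1 (0.798), Jak1 (0.754) and Pitpnc1 (0.750). The first gene was Fam105a (0.706) for Hspa1b, 1110038B12Rik (0.394) for Hspb1, Pfkl (0.780) for Hsp90aa1 and Orai1 (0.671) for Hspa8.

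Promoter windows of 300 bases were in the RefSeq promoter table (build GRCm38.p6) for 5 of the 7 members, and Hsp90aa1 and Hspa8 were not in it. For Hspa1a, Hspa1b and Hspb1 the window holds 250 bases before and 50 after the gene start given above. The windows of Hsph1 and Dnajb1 lie at other distances from that start. Both strands were searched for 3 alternating heat shock units, GAANNTTCNNGAA, and for 2 units as GAANNTTC or TTCNNGAA, which lie within the longer motif. Of 32841 promoters 0.603% hold the first, 7.86% the second and 8.52% the third, and a match is a description of letters. For the 4 members with a match 1 window each is printed, and capitals mark the heat shock matches. Hspa1a (chr17:34972107-34972406, minus strand) and Hspa1b (chr17:34959189-34959488, minus strand) differ at 4 of 300 bases, C44T, T47C, T249G and C276T, counted from 1 at the 5′ end with the Hspa1a base first, and each holds GAANNTTC at base 147. Hspb1 (chr5:135887669-135887968, plus strand) holds GAANNTTC at bases 134 and 154. Hsph1 (chr5:149636287-149636586, minus strand) holds TTCNNGAA at bases 218 and 287 and GAANNTTC at 292, the last 2 inside a match to the 3-unit motif. A second Hsph1 window (chr5:149636266-149636565), not printed, overlaps the first and holds these at bases 197, 266 and 271. The Dnajb1 windows held none of these motifs.
Hspa1a: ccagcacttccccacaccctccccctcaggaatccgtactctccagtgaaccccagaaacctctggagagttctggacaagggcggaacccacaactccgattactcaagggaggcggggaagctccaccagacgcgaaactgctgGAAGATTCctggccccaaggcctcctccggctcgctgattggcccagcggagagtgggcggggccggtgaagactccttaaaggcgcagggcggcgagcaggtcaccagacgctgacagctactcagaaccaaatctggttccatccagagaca
Hspa1b: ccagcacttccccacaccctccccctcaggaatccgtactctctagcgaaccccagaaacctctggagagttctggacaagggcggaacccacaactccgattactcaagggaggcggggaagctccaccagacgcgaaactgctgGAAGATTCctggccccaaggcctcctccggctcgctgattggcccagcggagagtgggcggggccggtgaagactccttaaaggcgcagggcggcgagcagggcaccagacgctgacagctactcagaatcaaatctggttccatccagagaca
Hspb1: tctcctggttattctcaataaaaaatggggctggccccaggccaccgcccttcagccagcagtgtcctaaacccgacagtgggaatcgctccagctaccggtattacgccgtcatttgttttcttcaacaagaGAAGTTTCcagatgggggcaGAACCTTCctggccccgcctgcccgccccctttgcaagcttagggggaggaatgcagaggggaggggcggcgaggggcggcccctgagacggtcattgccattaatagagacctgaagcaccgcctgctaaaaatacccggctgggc
Hsph1: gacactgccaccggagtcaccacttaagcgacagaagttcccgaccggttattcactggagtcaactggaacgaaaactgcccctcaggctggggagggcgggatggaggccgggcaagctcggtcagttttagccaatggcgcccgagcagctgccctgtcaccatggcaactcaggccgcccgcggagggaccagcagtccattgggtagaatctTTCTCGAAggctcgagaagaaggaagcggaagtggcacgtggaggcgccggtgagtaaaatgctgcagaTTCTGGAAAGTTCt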

How the data were processed

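By the labels the libraries were made with a 10x Genomics 3′ kit, while the paper also describes a 5′ kit for RNA and T cell receptors of sorted cells. The authors aligned reads to GRCm38 with Cell Ranger, and deposited counts as UMIs per gene and cell, which were used as they are. Cells with at least 200 genes and at most 20% mitochondrial UMIs were kept. Cell types were gated on raw UMIs of marker genes, and a cell that passed more than 1 gate was left out, with no other removal of doublets. Levels are UMIs summed over cells per total of 1000000, with exact Poisson intervals, ratios have conditional exact intervals, and shares of cells have Clopper-Pearson intervals, each at 95%. A side at 0 was set to a floor of 3 counts in that library. Shares were also computed with each cell thinned to 2000 UMIs (seed 1), with shallower cells left out. Libraries held 10927395 to 38930018 UMIs. Named genes are the 7 members, list genes past 2-fold (at most 3 a direction) and the 5 genes most like a member, given for 6 members over libraries. The members and lists were chosen with earlier results of these data known. Alternatives were the cell filter, gate minimum, top cells, mean over cells, depth, total and UMI minimum. The code (Python 3.11.15, numpy 2.4.6, scipy 1.17.1, matplotlib 3.10.9) was tested on simulated data.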

Additional observations from a re-analysis of the deposited data

Results flagged for a closer look

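In 5 cases the ratio of Aire-/- over Aire+/+ pointed up under isotype and down under anti-PD1 with both counting intervals clear of 0, in each sort where the gate had at least 50 UMIs of the gene over each pair of libraries. Other ratios also changed sign between treatments, with an interval that reached 0 under at least 1 of them, except Hsp90aa1 in tumor CD8 T cells, whose ratios changed sign with both intervals clear of 0 in the CD45+ sort (0.44 and -0.30) and had 1 sign in the CD8+ sort. In thinned cells the first of these was -0.13. Each group has 1 library, and the difference was not tested. For Hspa1a in tumor CD8 T cells of the CD45+ sort the log2 ratio was 1.97 with isotype and -1.69 with anti-PD1, a difference of -3.66. The Aire+/+ isotype side had 10 UMIs in 122 cells, 70% of them in 1 cell. Both ratios moved with the cells counted, as given above. In the CD8+ tumor sort the Hspa1a ratio in CD8 T cells was 1.25 and -0.45, a difference of -1.70. Tumor monocytes had 0.64 and -0.68 for Hspa1a, a difference of -1.32, and 1.35 and -0.86 for Hspa1b, a difference of -2.21. For Hspa1b in tumor macrophages the ratios were 0.99 and -1.54, a difference of -2.53.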

How the results depend on the processing

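Ratios with at least 50 UMIs over the pair were recomputed under 10 other choices in tumor CD8 T cells of both sorts, macrophages, tumor and splenic monocytes, tumor NK cells, and splenic CD8 T cells of the CD8+ sort, B cells and CD4 T cells, and tumor over spleen in CD8 T cells of the CD8+ sort and, for Hspa1a, monocytes. For gates other than CD8 T cells and macrophages this was chosen after the data were seen. Of 365 values of Hspa1a, 286 stayed within the counting interval of the reported ratio, 76 moved outside it and 3 past 2-fold changed sign, and of 1884 values of the other members 1660 stayed within, 223 moved outside and 1 past 2-fold changed sign. The 3 were Hspa1a in tumor NK cells, by genotype under isotype (-2.34 to 0.39 with no gate) and by treatment in Aire-/- mice (2.13 to -1.36 without the top cell and -1.83 with no gate). The other was Hsph1 in macrophages, Aire-/- over Aire+/+ under anti-PD1, which went from -1.79 to 0.28 over all cells with no gate. A value with no gate is that of the whole library. It also holds differences in cell mix and is no check of the gated ratio alone. No ratio moved outside its interval with at most 10% mitochondrial UMIs or with no filter on cells. The values that moved follow as log2 ratios, Aire-/- over Aire+/+ as genotype ratios and anti-PD1 over isotype as treatment ratios, and the cause was not tested.

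With a stricter gate, genotype ratios in tumor CD8 T cells were 1.49 for Hspa1a and 1.43 for Hspa1b under isotype. Splenic CD4 T cells had 0.42 for Hspa8 under anti-PD1. Treatment ratios in tumor CD8 T cells were 1.56 for Hspa1a and 1.13 for Hspa1b in Aire+/+ mice. Values in splenic CD4 T cells were -0.40 for Hspa8 in Aire-/- mice. CD8 T cells had tumor over spleen ratios of -0.81 for Hspa1b in Aire+/+ isotype mice.

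With a looser gate, genotype ratios in tumor macrophages were 0.18 for Hspa1a under isotype, and -0.77 for Hspa1b under anti-PD1. Tumor monocytes had treatment ratios of -0.02 for Hspa1a and 1.16 for Hspb1 in Aire+/+ mice.

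Without the top cell of each library, genotype ratios in tumor CD8 T cells were 1.33 for Hspa1b under isotype. Values in splenic B cells were 0.29 for Hsp90aa1 under isotype. Values in tumor CD8 T cells of the CD45+ sort were 3.40 for Hspa1a under isotype, and -1.97 for Hspa1b under anti-PD1. Values in tumor NK cells were -1.14 for Hspa1a and 0.75 for Dnajb1 under isotype, and -1.61 for Hspa1a under anti-PD1. Treatment ratios in tumor macrophages were 0.54 for Hspa1a in Aire+/+ mice. Tumor CD8 T cells of the CD45+ sort had 3.86 for Hspa1a in Aire+/+ mice. Tumor monocytes had -0.02 for Hspa1a in Aire+/+ mice. Tumor NK cells had -0.89 for Hspa1a in Aire+/+ mice, and -1.36 for Hspa1a and 0.04 for Hsp90aa1 in Aire-/- mice. CD8 T cells had tumor over spleen ratios of -0.75 for Hspa1b in Aire+/+ isotype mice.

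Without the top 1% of cells, genotype ratios in tumor CD8 T cells were 2.21 for Hspa1a and 2.11 for Hspa1b under isotype, and -0.69 for Hspa1b and 0.18 for Hsph1 under anti-PD1. For tumor macrophages they were 0.14 for Hspa1a and 1.57 for Hspa1b under isotype, and -1.24 for Hspa1a under anti-PD1. For splenic CD8 T cells they were 0.41 for Hspa8 under isotype, and 1.51 for Hspa1a, 0.20 for Hsp90aa1 and 0.70 for Hspa8 under anti-PD1. For splenic B cells they were 0.41 for Hsp90aa1 and 0.75 for Hspa8 under isotype. For tumor CD8 T cells of the CD45+ sort they were 4.66 for Hspa1a under isotype, and -4.01 for Hspa1a and -4.53 for Hspa1b under anti-PD1. For tumor monocytes they were 1.83 for Hspa1b under isotype, and -0.43 for Hspa1a under anti-PD1. For tumor NK cells they were 0.74 for Dnajb1 under isotype. Tumor CD8 T cells had treatment ratios of 0.74 for Hspa1a, 1.27 for Hspa1b, 0.11 for Hsph1 and 0.38 for Dnajb1 in Aire+/+ mice, and -1.89 for Hspa1a and -1.54 for Hspa1b in Aire-/- mice. In tumor macrophages they were 0.29 for Hspa1a in Aire+/+ mice. In splenic CD8 T cells they were -2.02 for Hspa1a in Aire+/+ mice, and -0.62 for Hspa1a, -0.46 for Hsp90aa1 and 0.05 for Hspa8 in Aire-/- mice. In splenic B cells they were -0.12 for Hsp90aa1 in Aire+/+ mice. In tumor CD8 T cells of the CD45+ sort they were 5.08 for Hspa1a in Aire+/+ mice, and -3.60 for Hspa1a and -3.92 for Hspa1b in Aire-/- mice. In tumor monocytes they were -0.26 for Hspa1a in Aire+/+ mice, and -2.40 for Hspa1b in Aire-/- mice. In tumor NK cells they were -2.00 for Hspa1a in Aire+/+ mice, and 0.06 for Hsp90aa1 in Aire-/- mice. Tumor over spleen ratios of CD8 T cells were 0.24 for Hspa1a, -2.15 for Hspa1b, 0.98 for Hsp90aa1 and 0.38 for Hspa8 in Aire+/+ isotype mice, 3.01 for Hspa1a, -0.23 for Hspa1b, 0.36 for Hsph1 and 0.32 for Dnajb1 in Aire+/+ anti-PD1 mice, 2.35 for Hspa1a, -0.06 for Hspa1b and -0.60 for Dnajb1 in Aire-/- isotype mice, and 1.09 for Hspa1a, -1.61 for Hspa1b, -0.07 for Dnajb1, 0.42 for Hsp90aa1 and 0.05 for Hspa8 in Aire-/- anti-PD1 mice. Tumor over spleen ratios of monocytes were -0.03 for Hspa1a in Aire+/+ isotype mice.

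With cells thinned to 2000 UMIs, genotype ratios in tumor CD8 T cells were 0.94 for Hspa1a, 1.33 for Hspa1b, 0.75 for Hsph1, 0.55 for Dnajb1 and 0.02 for Hsp90aa1 under isotype, and -0.82 for Hspa1a, -2.35 for Hspb1, 0.16 for Hsph1, -0.15 for Hsp90aa1 and 0.13 for Hspa8 under anti-PD1. Tumor macrophages had 0.29 for Hspa1a, 1.47 for Hspa1b and 0.39 for Hsph1 under isotype, and -0.66 for Dnajb1 and -0.32 for Hsp90aa1 under anti-PD1. Splenic CD8 T cells had -1.06 for Hspa1a and 0.44 for Hspa8 under isotype, and 0.70 for Hspa8 under anti-PD1. Splenic B cells had 0.46 for Hsp90aa1 and 0.85 for Hspa8 under isotype, and 0.90 for Hspa8 under anti-PD1. Tumor CD8 T cells of the CD45+ sort had -0.27 for Dnajb1 and -0.13 for Hsp90aa1 under isotype, and -0.79 for Hspa1a, -2.79 for Hspa1b and 0.15 for Hspa8 under anti-PD1. Tumor monocytes had 0.82 for Hspa1a and 0.35 for Hsp90aa1 under isotype, and -1.23 for Hspa1a, -1.48 for Hspa1b and 0.13 for Hspa8 under anti-PD1. Tumor NK cells had -0.85 for Hspa1a, -1.17 for Hsph1 and 0.73 for Dnajb1 under isotype. Splenic monocytes had -0.58 for Dnajb1 under isotype, and 0.31 for Hspa8 under anti-PD1. Splenic CD4 T cells had 0.66 for Hspa8 under isotype, and 2.07 for Hsph1 under anti-PD1. Treatment ratios in tumor CD8 T cells were 0.62 for Dnajb1 and 0.13 for Hsp90aa1 in Aire+/+ mice, and -0.73 for Hspa1b in Aire-/- mice. Values in tumor macrophages were 0.33 for Hsp90aa1 in Aire+/+ mice, and -1.26 for Hspa1a in Aire-/- mice. Values in splenic CD8 T cells were -0.22 for Hspa8 in Aire+/+ mice, and 0.57 for Hspa1a, -0.22 for Hsph1 and 0.05 for Hspa8 in Aire-/- mice. Values in splenic B cells were -0.18 for Hsp90aa1 and -0.18 for Hspa8 in Aire+/+ mice, and -0.13 for Hspa8 in Aire-/- mice. Values in tumor CD8 T cells of the CD45+ sort were -0.00 for Dnajb1 and 0.03 for Hsp90aa1 in Aire+/+ mice, and -2.58 for Hspa1b, 0.32 for Dnajb1 and -0.12 for Hsp90aa1 in Aire-/- mice. Values in tumor monocytes were 1.03 for Hspa1b, 1.34 for Hsph1 and 0.05 for Dnajb1 in Aire+/+ mice, and -1.85 for Hspa1a, 0.70 for Hsph1, -0.16 for Hsp90aa1 and -0.12 for Hspa8 in Aire-/- mice. Values in tumor NK cells were 0.75 for Hspa1a and 0.47 for Dnajb1 in Aire+/+ mice, and 1.15 for Hsph1 and 0.22 for Hspa8 in Aire-/- mice. Values in splenic monocytes were -0.17 for Hsp90aa1 in Aire+/+ mice, and 1.04 for Dnajb1 and 0.02 for Hspa8 in Aire-/- mice. Values in splenic CD4 T cells were -0.76 for Hsp90aa1 in Aire+/+ mice, and -0.11 for Hspa8 in Aire-/- mice. CD8 T cells had tumor over spleen ratios of 1.74 for Hspa1a and 0.37 for Hspa8 in Aire+/+ isotype mice, 0.74 for Hsph1, 0.76 for Dnajb1 and 0.60 for Hspa8 in Aire+/+ anti-PD1 mice, 3.75 for Hspa1a, 0.91 for Hspa1b, -0.44 for Hsph1, -0.31 for Dnajb1 and 0.11 for Hspa8 in Aire-/- isotype mice, and -0.46 for Hsph1, 0.29 for Dnajb1, 0.46 for Hsp90aa1 and 0.03 for Hspa8 in Aire-/- anti-PD1 mice. Monocytes had tumor over spleen ratios of 0.60 for Hspa1a in Aire+/+ isotype mice, and 0.96 for Hspa1a in Aire-/- isotype mice.

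As a mean over cells, genotype ratios in tumor CD8 T cells were 0.19 for Hspa8 under isotype, and 0.17 for Hsph1 and -0.14 for Hsp90aa1 under anti-PD1. In splenic CD8 T cells they were 0.43 for Hspa8 under isotype. In splenic B cells they were 0.44 for Hsp90aa1 and 0.84 for Hspa8 under isotype, and 0.89 for Hspa8 under anti-PD1. In tumor monocytes they were -0.91 for Hspa1a under anti-PD1. Tumor CD8 T cells had treatment ratios of 2.31 for Hspb1, 0.19 for Hsph1 and 0.05 for Hspa8 in Aire+/+ mice, and -0.62 for Hspa1b, -0.03 for Hsp90aa1 and -0.02 for Hspa8 in Aire-/- mice. For tumor macrophages they were 0.50 for Hspa1a and 0.53 for Hsph1 in Aire+/+ mice. For splenic CD8 T cells they were -0.42 for Hsp90aa1 and 0.06 for Hspa8 in Aire-/- mice. For splenic B cells they were -0.17 for Hsp90aa1 in Aire+/+ mice, and -0.13 for Hspa8 in Aire-/- mice. Tumor over spleen ratios of CD8 T cells were 1.78 for Hspa1a, -0.09 for Hspa1b, 0.04 for Hsph1 and 0.02 for Dnajb1 in Aire+/+ isotype mice, 4.23 for Hspa1a and 0.59 for Dnajb1 in Aire+/+ anti-PD1 mice, 1.15 for Hspa1b, -0.48 for Hsph1, -0.38 for Dnajb1 and 0.11 for Hspa8 in Aire-/- isotype mice, and -0.59 for Hsph1, 0.24 for Dnajb1, 0.45 for Hsp90aa1 and 0.04 for Hspa8 in Aire-/- anti-PD1 mice.

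On a total without mitochondrial and ribosomal protein genes, genotype ratios in tumor CD8 T cells were 0.14 for Hspa8 under isotype. Values in tumor macrophages were -0.02 for Hspa8 under isotype. Values in splenic CD8 T cells were 0.36 for Hspa8 under isotype, and 0.25 for Hsp90aa1 and 0.66 for Hspa8 under anti-PD1. Treatment ratios in tumor CD8 T cells were -0.00 for Hsp90aa1 and -0.03 for Hspa8 in Aire+/+ mice. Splenic CD8 T cells had -0.22 for Hspa8 in Aire+/+ mice. CD8 T cells had tumor over spleen ratios of 0.97 for Hspa1a, -0.74 for Hspa1b, -0.44 for Hsph1, -0.40 for Dnajb1, 0.58 for Hsp90aa1 and 0.03 for Hspa8 in Aire+/+ isotype mice, 0.44 for Hspa1b, 0.15 for Hsph1, 0.05 for Dnajb1, 0.44 for Hsp90aa1 and 0.23 for Hspa8 in Aire+/+ anti-PD1 mice, 0.28 for Hspa1b, -0.96 for Hsph1, -0.82 for Dnajb1, -0.27 for Hsp90aa1 and -0.18 for Hspa8 in Aire-/- isotype mice, and -0.02 for Hspa1b, -1.13 for Hsph1, -0.28 for Dnajb1, -0.01 for Hsp90aa1 and -0.31 for Hspa8 in Aire-/- anti-PD1 mice.

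Over all cells of the library with no gate, no cell type is singled out, so gates of 1 sort and tissue share 1 value. The gate named is the one whose ratio that value was set beside. These values also hold differences in cell mix. Macrophages were 28.6% of cells in the Aire+/+ anti-PD1 CD45+ tumor library and 7.57% in the Aire-/- anti-PD1 one. Genotype ratios set beside tumor macrophages were 0.39 for Hspa1a, 0.41 for Dnajb1 and 0.09 for Hspa8 under isotype, and -1.88 for Hspa1a, 0.28 for Hsph1, 0.22 for Dnajb1 and 0.13 for Hspa8 under anti-PD1. For splenic CD8 T cells they were -1.04 for Hspa1a under isotype. For splenic B cells they were 0.58 for Hspa8 under isotype, and 0.65 for Hspa8 under anti-PD1. For tumor CD8 T cells of the CD45+ sort they were 0.39 for Hspa1a and 0.19 for Hsp90aa1 under isotype, and 0.22 for Dnajb1 and -0.08 for Hsp90aa1 under anti-PD1. For tumor monocytes they were 0.39 for Hspa1a and 0.09 for Hspa8 under isotype, and -1.88 for Hspa1a, -1.64 for Hspa1b, 0.22 for Dnajb1, -0.08 for Hsp90aa1 and 0.13 for Hspa8 under anti-PD1. For tumor NK cells they were 0.39 for Hspa1a, 0.35 for Hsph1, 0.19 for Hsp90aa1 and 0.09 for Hspa8 under isotype, and -1.88 for Hspa1a under anti-PD1. For splenic monocytes they were -0.21 for Hspa1a and 0.58 for Hspa8 under isotype, and 0.72 for Hspa1a, 0.34 for Hsp90aa1 and 0.65 for Hspa8 under anti-PD1. For splenic CD4 T cells they were 0.58 for Hspa8 under isotype. Tumor CD8 T cells had treatment ratios of 1.10 for Hspa1a in Aire+/+ mice. In tumor macrophages they were 0.45 for Hspa1a, 1.32 for Hspa1b, 1.17 for Hspb1, 0.48 for Hsph1 and 0.13 for Hsp90aa1 in Aire+/+ mice, and -1.83 for Hspa1a, -1.59 for Hspa1b, 0.41 for Hsph1 and -0.04 for Hspa8 in Aire-/- mice. In splenic B cells they were -0.18 for Hsp90aa1 in Aire+/+ mice, and -0.14 for Hspa8 in Aire-/- mice. In tumor CD8 T cells of the CD45+ sort they were 0.45 for Hspa1a and 0.13 for Hsp90aa1 in Aire+/+ mice, and -1.83 for Hspa1a and -0.14 for Hsp90aa1 in Aire-/- mice. In tumor monocytes they were 0.45 for Hspa1a, 1.32 for Hspa1b, 1.17 for Hspb1, 0.48 for Hsph1 and 0.13 for Hsp90aa1 in Aire+/+ mice, and -1.83 for Hspa1a, 0.41 for Hsph1 and 0.19 for Dnajb1 in Aire-/- mice. In tumor NK cells they were 1.17 for Hspb1, 0.48 for Hsph1 and 0.13 for Hsp90aa1 in Aire+/+ mice, and -1.83 for Hspa1a, 0.19 for Dnajb1 and -0.04 for Hspa8 in Aire-/- mice. In splenic monocytes they were -0.18 for Hsp90aa1 and -0.21 for Hspa8 in Aire+/+ mice, and -0.57 for Hspa1a in Aire-/- mice. In splenic CD4 T cells they were -0.14 for Hspa8 in Aire-/- mice. Tumor over spleen ratios of CD8 T cells were 0.58 for Hspa1a and 0.32 for Hspa8 in Aire+/+ isotype mice, and 3.17 for Hspa1a in Aire+/+ anti-PD1 mice. Tumor over spleen ratios of monocytes were 2.20 for Hspa1a in Aire+/+ isotype mice, 4.14 for Hspa1a in Aire+/+ anti-PD1 mice, 2.80 for Hspa1a in Aire-/- isotype mice, and 1.54 for Hspa1a in Aire-/- anti-PD1 mice.

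With at least 200 UMIs over the pair in place of 50, genotype ratios under isotype and anti-PD1 and treatment ratios in Aire+/+ and Aire-/- mice passed 2-fold for 75, 151, 12 and 34 genes in place of 215, 496, 68 and 223 in macrophages. B cells had 13, 30, 15 and 8 genes in place of 60, 107, 66 and 47. For tumor CD8 T cells the counts were 38, 43, 14 and 13 genes in place of 147, 138, 95 and 82, and splenic ones 61, 67, 17 and 16 genes in place of 202, 231, 65 and 69. Tumor monocytes had 61, 122, 11 and 27 genes in place of 211, 340, 61 and 96. CD8 T cells of the CD45+ tumor sort had, for the 2 genotype ratios, 15 and 34 genes in place of 104 and 197, and splenic CD4 T cells 3 and 7 genes in place of 48 and 63. In splenic monocytes the genotype ratio under anti-PD1 had 14 genes in place of 88 and the 2 treatment ratios 2 and 8 genes in place of 43 and 52. In tumor NK cells the counts were 23, 30, 13 and 15 genes in place of 164, 117, 84 and 84. Fewer genes were tested at this minimum.

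Some alternatives gave no value since a side had 0 UMIs. Without the top 1% of cells these were Hspb1 in tumor CD8 T cells by genotype under anti-PD1 and by treatment in Aire+/+ mice, Hspb1 in macrophages by treatment in Aire+/+ mice, Hspa1a in B cells by genotype under isotype and Hspa1b in B cells by treatment in Aire-/- mice. In tumor monocytes Hspb1 had none without the top cell, without the top 1% of cells or thinned, by genotype under anti-PD1 and by treatment in Aire+/+ mice. The same 2 ratios of Hspb1 in NK cells had none without the top cell or the top 1%, and Hspa1a in NK cells had none with a stricter gate or without the top 1%, by genotype under anti-PD1 and by treatment in Aire-/- mice. Thinned to 2000 UMIs it was Hsph1 in macrophages, by genotype under anti-PD1 and by treatment in Aire-/- mice. Hspb1 in macrophages by genotype under anti-PD1 (0 against 69 UMIs) and tumor over spleen in Aire+/+ anti-PD1 mice (145 against 0) had no alternative. With 1 library a group, neither the spread between mice nor that between libraries is known, and counts of Hspb1 and of Hspa1a in lymphocytes rest on few cells.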
